A study of Mus musculus with 2 samples.

Results

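A set of 10 genes that encode receptors of natural killer (NK) cells was described in single cells of the mouse uterus, among 32285 genes listed. There were 6 members of the Ly49 family (Klra1, Klra3, Klra4, Klra7, Klra8 and Klra9) and 4 related lectin-like receptors (Klre1, Klrb1c, Klrc1 and Klrk1). The 10 members were chosen by name, with their pattern in these libraries already known, for comparison between cells with transcripts of the NK genes Ncr1 or Eomes and T cells. That contrast is therefore given as a description.

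Entire uteri from females, 6 months old, were digested to single cells, and transcript 3-prime ends were sequenced in droplets. The control library came from Prickle1 f/f mice, which carry a floxed gene for the planar cell polarity protein PRICKLE1. The cKO library came from Prickle1 f/f Ltf-cre mice (named Ltf-iCre in the study's design), which carry the same floxed alleles plus a Cre driven by Ltf, a gene of the uterine epithelium. Each library was a pool of 3 mice, so there was 1 sample per group, no replicate check and no p-value. All intervals are 95% intervals for counting error alone, and UMIs, the unique tags that count molecules, are the unit throughout. The labels' genotype entry calls both samples C57BL/6J wild-type, against their titles. Control and cKO below mean the libraries so titled. Prickle1 was higher in cKO in epithelial cells, at 4.604 CPM, the counts per 1e+06 UMIs (2.30 to 8.24, 11 UMIs in 103 cells), against 0.752 CPM in control (0.401 to 1.29, 13 UMIs in 971 cells), and over all cells (8.24 against 2.65 CPM). The cKO epithelial cells also held 3530 CPM of 4 stromal markers, against 348 CPM in control. Stromal cells had 9.29 CPM of Prickle1 in cKO and 5.29 CPM in control. The part of stromal RNA in the epithelial difference was not tested. The deleted part of the gene is not given in the sources used here, so a 3-prime tag does not check the titles. Genotype, animals and library preparation cannot be told apart.

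NK cells decide whether to kill by summing inhibitory and activating receptors. Inhibitory Ly49 receptors bind major histocompatibility complex (MHC) class I on other cells and signal through an immunoreceptor tyrosine-based inhibitory motif, while activating Ly49 receptors lack that motif and pair with the adaptor DAP12, encoded by Tyrobp. Individual NK cells switch on different subsets of the family, so the cells of 1 animal carry a mixed repertoire. The uterus holds conventional NK cells, tissue-resident NK cells and related group 1 innate lymphoid cells, which share many of these receptors.

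All 10 genes lie on mouse chromosome 6 (GRCm38, GENCODE M21) within 1608 kb, the NK gene complex. Klrb1c (128778485 to 128789215) lies at one end and the Ly49 genes fill 343 kb at the other, from Klra4 (130043731 to 130067271) to Klra1 (130363917 to 130386874). Klre1 (129577905 to 129585827), Klrk1 (129610323 to 129623864) and Klrc1 (129666015 to 129678973) lie between. Klre1 is on the plus strand and the other 9 genes are on the minus strand.

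The first 36 coding bases show how the family divides into inhibitory and activating members, since the tyrosine of the inhibitory motif is codon 8. Capitals mark codon 8, counted from the start codon. The runs are read 5′ to 3′ from the GENCODE M21 transcripts.
Klra1: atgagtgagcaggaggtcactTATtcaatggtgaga
Klra3: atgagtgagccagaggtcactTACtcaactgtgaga
Klra7: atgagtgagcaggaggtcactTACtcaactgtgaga
Klra9: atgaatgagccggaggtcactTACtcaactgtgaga
Klra4: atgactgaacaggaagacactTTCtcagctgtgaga
Klra8: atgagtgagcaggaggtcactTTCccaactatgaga
Klrc1: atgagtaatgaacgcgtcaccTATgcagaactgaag
Klra1, Klra3, Klra7, Klra9 and Klrc1 have a tyrosine codon there, and Klra4 and Klra8 have a phenylalanine codon. For Klra4 this window lies in exon 2, at chr6:130065267-130065302 on the minus strand, and for Klra7 in exon 1 of its transcript, at chr6:130231582-130231617 on the minus strand. The sequence of the membrane-spanning stretch divides the 6 Ly49 genes in the same way, shown for 1 gene of each kind with codon 57 in capitals.
Klra4: atcctcatttcccttCGActggtaactgtt
Klra7: atcctctgtttccttCTCctggtaactgtt
Klra4 and Klra8 have an arginine codon at this place, the residue through which such receptors pair with DAP12, and the 4 others a leucine codon. These runs lie at chr6:130063125-130063154 and chr6:130229954-130229983 on the minus strand.

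The same likeness limits the counts. Of the 50-base words in the last 500 bases of the transcript, 44.8% for Klra9 and 42.4% for Klra3 also occurred in transcripts of other genes, mainly in each other. For Klrc1 the share was 56.3%, all in Klrc2, and for Klra7 27.5%, in the pseudogene Klra13-ps. For Klra8 it was 13.1%, for Klra1 5.76% and for Klra4 4.66%. Klre1, Klrb1c and Klrk1 shared none. Values of Klra3, Klra9, Klra7 and Klrc1 are therefore uncertain where reads fell on shared words.

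Cells were barcodes with 500 genes or more and no more than 20% mitochondrial UMIs, 3653 in control and 4950 in cKO, with medians of 4650 and 5944 UMIs. The NK gate held cells with a UMI of Ncr1, an activating receptor of NK cells, or Eomes, a transcription factor of the lineage, and none of Cd3e, a subunit of the T cell receptor complex. It held 123 control cells (3.37% of cells) and 683 cKO cells (13.8%). T cells (with a Cd3e UMI) were divided into a gamma delta gate with a UMI of Trdc, the constant region of the delta chain, and an other T gate without one. These gates held 78 and 81 cells in control, and 336 and 123 cells in cKO. The 2 libraries shared 5 barcodes among their cells and none in the NK gates.

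The NK gate held other NK markers, and its cells were not pure. Besides Ncr1 and Eomes, which define the gate, all 9 markers of NK or group 1 innate lymphoid cells on the list were found in at least 10% of gate cells in both libraries. Transcripts of the T cell receptor constant region Trbc1 were in 87 of 123 and 546 of 683 gate cells, and Trdc in 24 and 185, while Tcrg-C2, Il17a, Cd163l1 and Blk were at 0 in both. The 4 epithelial markers summed to 2477 CPM in the control gate and 257 CPM in cKO, and the 4 stromal markers to 1142 and 1505 CPM. In control, 30 gate cells had a UMI of Epcam, Dcn, Acta2, C1qa or Csf1r, which mark other lineages. These 30 cells held 56.1% of the gate's UMIs and 11.0% of its Ly49 UMIs, and 13 of them had an Fcer1g UMI. In cKO, 146 such cells held 36.0% of the UMIs and 19.7% of the Ly49 UMIs. Values are therefore given for the whole gate and for its cells without those UMIs, called lineage-free, 93 in control and 537 in cKO. The name refers to those 5 genes alone. In these cells the 4 epithelial markers still summed to 145 CPM in control (30 cells with any) and 79.0 CPM in cKO (129 cells). The 5 dendritic cell markers summed to 54.0 CPM in 9 control cells and 517 CPM in 43 cKO cells, and their part in the ratios between the libraries was not tested.

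Within each library the Ly49 genes were concentrated in the NK gate. At least 1 Ly49 UMI was found in 89 of 123 control gate cells (72.4%, 63.6 to 80.0) and 607 of 683 cKO gate cells (88.9%, 86.3 to 91.1). In lineage-free cells the shares were 83.9% and 91.4%. In the gamma delta gate a Ly49 UMI was found in 1 of 78 and 16 of 336 cells, and in the other T gate in 11 of 81 and 16 of 123. Epithelial cells (971 in control, 103 in cKO) had no Ly49 UMI in either library. Stromal cells had none among 1014 in control, which allows up to 0.296% of cells with a UMI, and 15 UMIs in 0.687% of 2039 cells in cKO. After every cell was thinned to 1000 UMIs, 47.2% of control and 52.3% of cKO NK-gate cells had a Ly49 UMI.

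**Figure D1:**
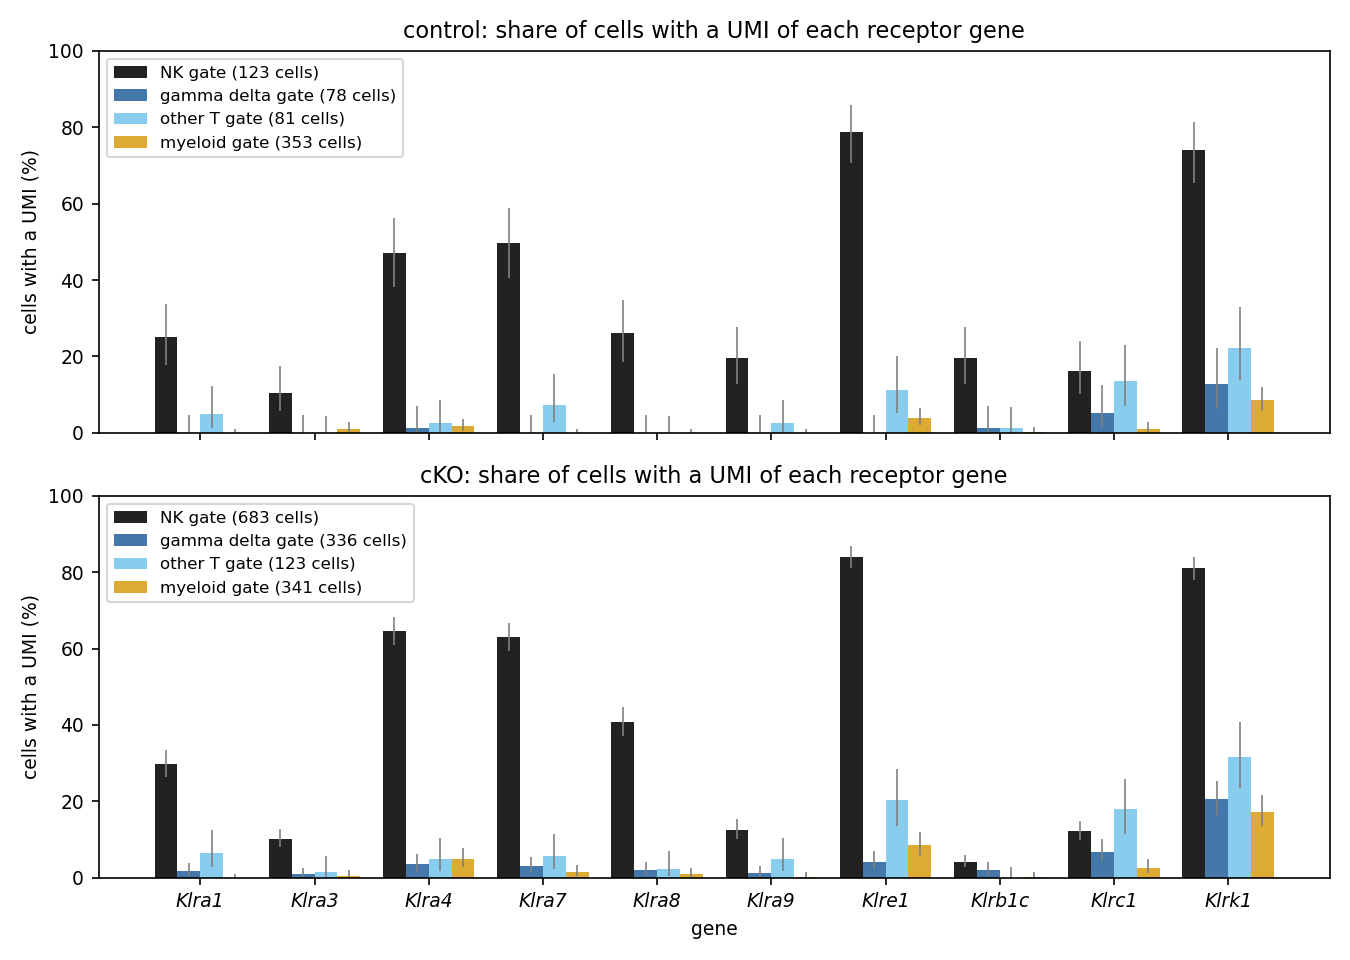
Share of cells with at least 1 UMI of each receptor gene (y axis, percent) in 4 cell gates of control (upper panel) and cKO (lower panel), with exact binomial 95% intervals as grey lines. The NK gate has the highest share for every gene except Klrc1 in cKO, which is at 12.3% in the NK gate and 17.9% in the other T gate, and the gap is small for Klrb1c in cKO, at 4.25% and, in the gamma delta gate, 2.08%.

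As a background, 3.89% of 8644 genes in control and 2.77% of 11135 genes in cKO were at least 4-fold higher in the NK gate than in the other T gate. The members past that fold were 9 in control, all but Klrc1, and 7 in cKO, all but Klra9, Klrc1 and Klrk1. Against the gamma delta gate the backgrounds were 6.83% and 3.52%, with 9 members past 4-fold in control (all but Klrc1) and 8 in cKO (all but Klrb1c and Klrc1). In the other direction, 4-fold lower in the NK gate, were 2.08% and 1.6% of genes against the other T gate and 2.71% and 3.46% against the gamma delta gate, and 0 members. Because this contrast was what chose the members, nothing is read from these counts. Summed Ly49 RNA in the NK gate was 570 CPM (531 to 612) in control and 774 CPM (751 to 798) in cKO. In the other T gate it was 37.1 and 66.3 CPM, and in the gamma delta gate 2.14 and 53.7 CPM. In cell-free RNA, taken from barcodes of at most 100 UMIs, the level was 23.7 CPM for control but 127 CPM for cKO, so both cKO T gates lay below the cell-free level of their library. That level was not a floor for cells: the 103 cKO epithelial cells had no Ly49 UMI, and few cKO stromal cells had one. The part of cell-free RNA in the T gates was not tested.

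Among T cells, the few with Ly49 transcripts carried other NK transcripts. In the cKO gamma delta gate the 16 Ly49-positive cells had a median of 22719 UMIs, against 4577 in the 320 without. Of these 16 cells, 14 had Fcer1g, 12 Tyrobp, 11 Eomes and 13 Klre1, against 9, 5, 0 and 1 of the 320. Tcrg-C1, a gamma chain constant region, was in 10 of the 16 and 283 of the 320. In the cKO other T gate 13 of 16 Ly49-positive cells had Fcer1g and 11 had Klre1, against 9 and 14 of 107 without, and their median depth was lower (3739 against 4488 UMIs). The control other T gate showed the same: 9 of 11 had Fcer1g and 8 Klre1, against 4 and 1 of 70. The part of doublets in these cells was not tested.

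The NK gates did not hold all of the signal. Over all cells Ly49 RNA was at 26.5 CPM (control) and 107 CPM (cKO), and the NK gate held 77.2% and 74.4% of it. Cells outside every gate held 17.9% and 20.4%, which the gate cannot assign because neither Ncr1, Eomes nor Cd3e was counted in them. Fewer cells of a type and less RNA per cell cannot be told apart in these sums over all cells.

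The inhibitory Ly49 genes had different levels. A 3-prime count gives at most 1 tag per molecule, so CPM was compared between genes with no division by length. Klra7, which encodes Ly49G, had 229 UMIs in 61 control cells (170 CPM, 148 to 193) and 1331 UMIs in 431 cKO cells (244 CPM, 231 to 257). Klra1, which encodes Ly49A, had 53 UMIs in 31 control cells (39.3 CPM, 29.4 to 51.4) and 340 UMIs in 204 cKO cells (62.3 CPM, 55.9 to 69.3). Both were higher in cKO across the whole gate, and neither was in lineage-free cells. There Klra7 had 347 and 312 CPM, a ratio of cKO to control of 0.899 (0.774 to 1.05), and Klra1 had 82.6 and 74.7 CPM, a ratio of 0.904 (0.664 to 1.25).

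Klra9 and Klra3, which encode Ly49I and Ly49C, were the lowest inhibitory genes in cKO, while in control Klra9 was level with Klra1. Klra9 had 55 UMIs in 24 control cells (40.7 CPM, 30.7 to 53.0) and 162 UMIs in 86 cKO cells (29.7 CPM, 25.3 to 34.6), a ratio of 0.729 (0.533 to 1.01). In lineage-free cells Klra9 had 87.7 CPM (52 UMIs) in control against 37.8 CPM (132 UMIs) in cKO, a ratio of 0.431 (0.310 to 0.606), so the whole interval was below 1. The direction turned in cells with no T cell receptor or CD3 UMI (22 and 71 cells), where the log2 ratio was 2.34. It also turned in cells with no Cd3d, Cd3g or Trdc UMI. The top control cell held 23.6% of the Klra9 UMIs of its gate. Klra3 had 24 UMIs in 13 control cells (17.8 CPM) and 104 UMIs in 70 cKO cells (19.1 CPM), a ratio of 1.07 (0.682 to 1.75) that spans 1.

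The activating Ly49 genes were among the 3 with the highest levels. Klra4, which encodes Ly49D, had the highest level of the 6, with 283 UMIs in 58 control cells (210 CPM, 186 to 236) and 1476 UMIs in 442 cKO cells (270 CPM, 257 to 285). A positive cell had a median of 4 Klra4 UMIs and at most 24 in control, and 2 and at most 19 in cKO. Klra8, which encodes Ly49H, the receptor for the cytomegalovirus protein m157, had 93.3 CPM (77.8 to 111) in 32 control cells and 149 CPM (139 to 160) in 279 cKO cells. In lineage-free cells Klra4 had 415 and 346 CPM, a ratio of 0.835 (0.727 to 0.962), and Klra8 201 and 175 CPM, a ratio of 0.873 (0.716 to 1.07). The order in both libraries was Klra4, Klra7, Klra8, then Klra1 or Klra9, then Klra3. Klra3, Klra9 and Klra7 share the most 3-prime words of the 6 with other genes, so their places are uncertain. Of the neighbours in that order, counting intervals overlapped between Klra4 and Klra7 in both libraries and between Klra1 and Klra9 in control.

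Among the related receptors, Klre1 and Klrk1 were present in most gate cells. Klre1, a receptor that pairs with products of Klri1 or Klri2, had 316 CPM (286 to 347) in control, 456 CPM (438 to 474) in cKO, and was found in 78.9% and 84.0% of gate cells. Klrk1 encodes NKG2D, an activating receptor for stress-induced ligands, and had 325 CPM (296 to 357) and 472 CPM (454 to 490). In lineage-free cells Klre1 had 612 and 567 CPM and Klrk1 636 and 600 CPM, and the interval of each ratio held 1. A Klrk1 UMI was also found in 22.2% and 31.7% of other T cells, 12.8% and 20.5% of gamma delta cells and 30 of 353 and 59 of 341 myeloid cells. Epithelial cells, which should lack the gene, had one in 2 of 971 and 0 of 103 cells. Cell-free RNA held 14.7 and 55.1 CPM of Klrk1, against 79.3 and 139 CPM in the other T gate, 40.8 and 64.9 in the gamma delta gate and 17.8 and 30.2 in the myeloid gate, so the cKO myeloid level was below it. Klrc1, which encodes NKG2A, the inhibitory partner of CD94, had 42.2 and 41.0 CPM in the NK gate. In lineage-free cells it had 69.1 and 53.2 CPM, a ratio of 0.770 (0.547 to 1.11), and its log2 ratio was -0.76 in gate cells with an Fcer1g or Tyrobp UMI. In the other T gate Klrc1 had 60.7 and 46.9 CPM, above the whole NK gate and below its lineage-free cells, and in the gamma delta gate 17.2 and 20.6 CPM.

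Klrb1c, which encodes NK1.1, the surface antigen used to identify NK cells of C57BL/6 mice, was lower in the cKO gate. Klrb1c had 53 UMIs in 24 of 123 control cells (39.3 CPM, 29.4 to 51.4) and 41 UMIs in 29 of 683 cKO cells (7.51 CPM, 5.39 to 10.2). The intervals did not overlap, with a cKO over control ratio of 0.191 (0.124 to 0.293). In lineage-free cells 22.6% of control and 4.28% of cKO cells had a Klrb1c UMI, with 82.6 and 9.45 CPM, a ratio of 0.114 (0.0712 to 0.181). No cell dominated either value, the top cell holding 11.3% of control and 12.2% of cKO UMIs. The log2 ratio was between -3.27 and -2.03 under the 11 alternatives that gave one. After thinning to 1000 UMIs, 2.44% of control and 0.587% of cKO cells had a UMI, so the detected cells were few. Ncr1 itself was found in 22 of 123 control and 44 of 683 cKO gate cells, so the cKO gate rested more on Eomes. Among the Ncr1-positive cells alone, 45.5% of control and 15.9% of cKO cells had a Klrb1c UMI. The part of the gate's makeup in the Klrb1c difference was not tested.

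**Figure D2:**
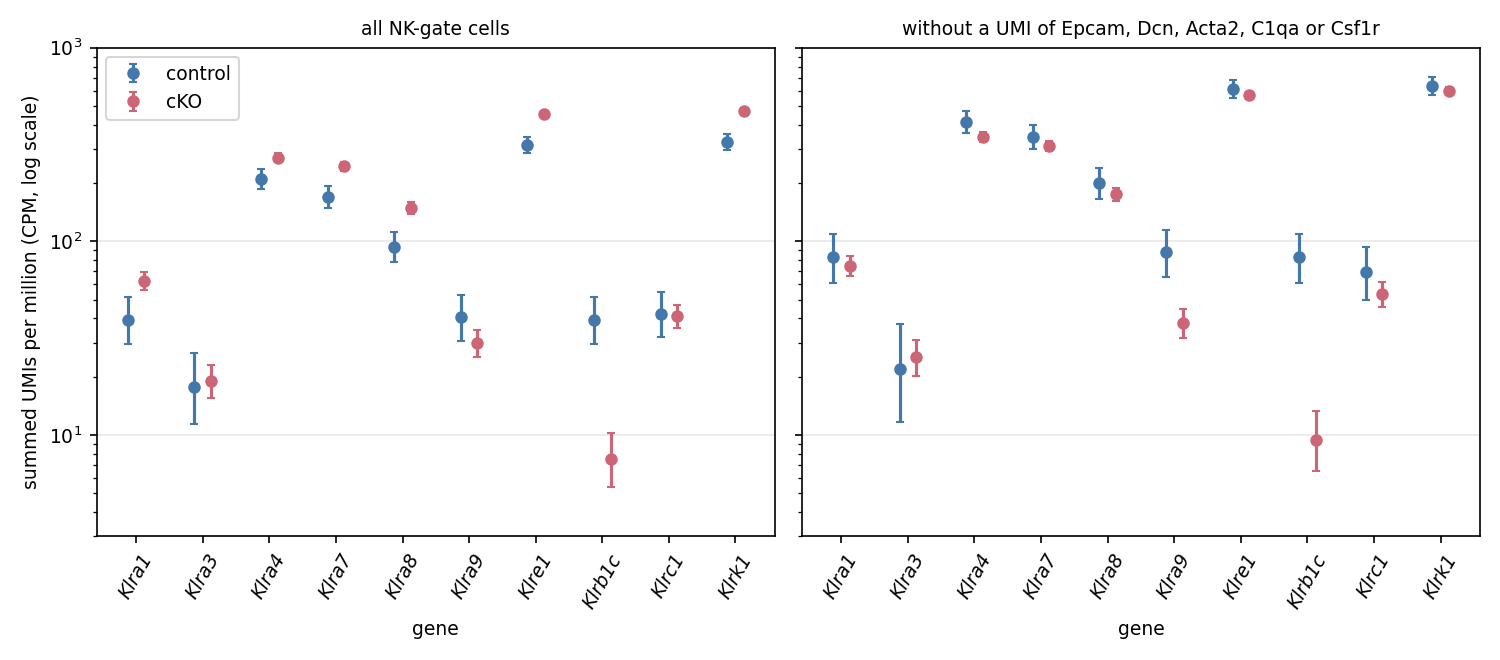
CPM from summed UMIs (y axis, log scale) of each receptor gene in NK-gate cells of control and cKO, with exact Poisson 95% intervals, for all gate cells (left) and for cells without a UMI of 5 genes of other lineages (right). In the left panel 6 genes lie higher in cKO with separate intervals, and in the right panel all genes but Klra3 lie lower in cKO, of which Klra9 (87.7 and 37.8 CPM) and Klrb1c (82.6 and 9.45 CPM) have separate intervals.

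Across the whole gate the summed Ly49 CPM was higher in cKO by a log2 ratio of 0.44 (0.33 to 0.55), and the related receptors by 0.43 (0.34 to 0.53). The median of all genes tested was itself shifted by 0.23 on that scale. At least 1.5-fold higher were 27.5% of 11404 genes and 2 members, Klra1 and Klra8, and at least 1.5-fold lower were 17.2% of genes and 1 member, Klrb1c. In lineage-free cells the direction turned: the Ly49 log2 ratio was -0.25 (-0.37 to -0.13) and that of the related receptors -0.19 (-0.29 to -0.08), with the median of all genes at 0.11. There 20.9% of 9372 genes and 0 members were at least 1.5-fold higher, and 14.6% of genes and 2 members, Klra9 and Klrb1c, at least 1.5-fold lower. A difference in the Ly49 sum between the libraries therefore turned direction with the cells counted, whereas Klrb1c was lower in cKO in both counts.

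**Figure D3:**
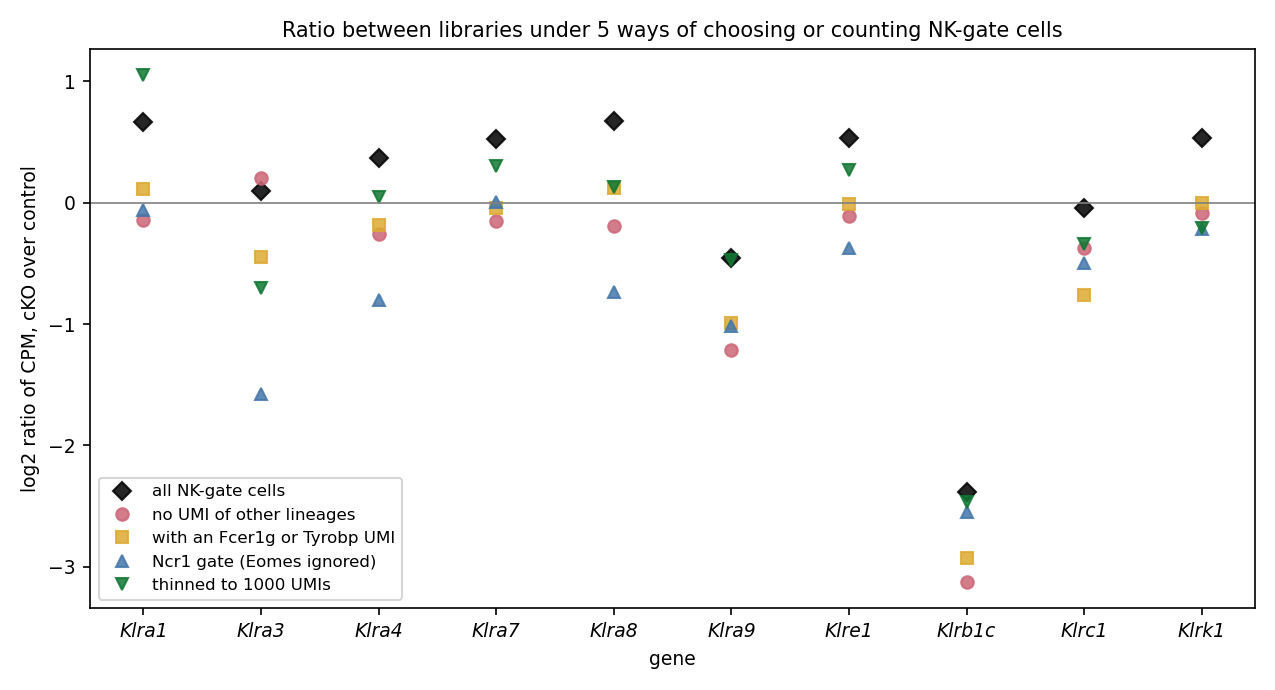
Log2 ratio of CPM, cKO over control (y axis), of each receptor gene in NK-gate cells under 5 ways of choosing or counting the cells, with 0 meaning equal levels. Klra1, Klra3, Klra4, Klra7, Klra8, Klre1 and Klrk1 have points on both sides of 0, while every Klrb1c point lies between -3.13 and -2.39.

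The other lectin receptors of the NK gene complex gave a mixed picture around Klrb1c. Of a list of 10, 8 passed a minimum of 20 UMIs over both libraries. In lineage-free cells 5 of these 8 were at least 1.5-fold lower in cKO (Klrd1, Klri2, Klrb1f, Klrg1 and Clec2d) and 1 higher (Klrc3), beside 14.6% of all genes lower and 20.9% higher, with a list median of -1.002 on the log2 scale. Klrb1f, a close relative of Klrb1c, had 26 UMIs in 14 control cells (43.8 CPM) and 13 UMIs in 9 cKO cells (3.72 CPM), a ratio of 0.0849 (0.04004 to 0.171). Klrb1a, under the minimum, had 8 UMIs in 7 of 93 cells and 4 UMIs in 4 of 537 cells. Klrb1b had 125 and 85.3 CPM, a ratio of 0.684 (0.528 to 0.894). Klrd1, which encodes CD94, the partner of NKG2A, had 491 and 212 CPM, a ratio of 0.432 (0.377 to 0.497). Klrg1, an inhibitory receptor for cadherins, had 89.4 and 40.4 CPM.

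Of the remaining Ly49 genes, Klra5 had 19.3 and 31.5 CPM across the gate, and Klra2, Klra6 and Klra10 had at most 6 UMIs in either library. Klra17 had 1 UMI in control and 31 UMIs in 11 cKO cells. Dendritic markers also differed between the gates (156 CPM in control, 560 CPM in cKO), and their part in the Klra17 count was not tested. Of these 5 genes, 2 passed the minimum in lineage-free cells, and 1, Klra17, was past 1.5-fold, higher in cKO, beside 20.9% of all genes. Klra10 shares words of sequence with Klra3, Klra8 and Klra9.

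Adaptors and signalling genes were compared in the same lineage-free cells. Tyrobp, the DAP12 adaptor of Klra4 and Klra8, had 556 CPM (control) and 256 CPM (cKO), a ratio of 0.461 (0.406 to 0.524). Hcst, which encodes the NKG2D adaptor DAP10, had 191 and 111 CPM, a ratio of 0.581 (0.470 to 0.723). Fcer1g, an adaptor with an activation motif, was near equal at 819 and 849 CPM, a ratio of 1.04 (0.941 to 1.14), and Cd247 had 38.8 and 26.9 CPM with an interval that holds 1. Of these 4 adaptors, 2 were at least 1.5-fold lower in cKO and 0 higher, beside 14.6% and 20.9% of all genes. Of 10 signalling genes, 1 was at least 1.5-fold higher in cKO (the kinase Fyn, 174 and 306 CPM) and 3 lower (Lck, Sh2d1b1 and Sh2d1a), beside the same 20.9% and 14.6%. The phosphatase Ptpn6, which inhibitory Ly49 receptors recruit, had 20.2 and 20.04 CPM from 12 and 70 UMIs.

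Ligands were read in the cells the receptors would meet. H2-K1 and H2-D1, the classical class I heavy chains bound by Ly49 receptors, were found in the epithelial, stromal, myeloid and NK gates. In epithelial cells H2-K1 had 843 and 720 CPM in control and cKO, and H2-D1 666 and 336 CPM. The 2 epithelial gates were unlike: the 4 stromal markers summed to 348 CPM in control and 3530 CPM in cKO. Their 971 and 103 cells had median depths of 6336 and 15410 UMIs. The part of these differences in the epithelial ligand values was not tested. Cell-free RNA held 880 and 1161 CPM of H2-K1 and 496 and 435 CPM of H2-D1, so the epithelial and stromal levels were below it in both libraries, except H2-D1 in control epithelial cells. In stromal cells H2-K1 had 511 and 447 CPM and H2-D1 305 and 225 CPM. H2-T23, which encodes Qa-1, the ligand of NKG2A, was lower in cKO in each of 4 gates: 58.8 and 16.3 CPM in epithelial cells, 42.8 and 26.4 in stromal, 152 and 70.7 in myeloid and 164 and 91.4 in the NK gate. Of these gates, only the NK gate has a share of all genes lower in cKO, so nothing is read from the shared direction. No cell-free level of H2-T23 is given here. Of the NKG2D ligands, H60c had 179 UMIs in control epithelial cells (10.4 CPM) and 11 UMIs in cKO ones (4.604 CPM). No cell-free level of H60c is given here. Ulbp1 had 17 UMIs (0.984 CPM) and 27 UMIs (11.3 CPM) in the same gates, against cell-free levels of 2.33 and 4.81 CPM. Of 8 ligand genes read in lineage-free NK-gate cells, 4 passed the minimum, and 2 of these (H2-T23 and Ulbp1) were at least 1.5-fold lower in cKO, beside 14.6% of all genes.

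Single cells carried several Ly49 genes at once. In lineage-free cells a mean of 2.04 of the 6 genes was detected in control and 2.27 in cKO, and 61.3% and 70.9% of cells had at least 2. Cells with 3 were the largest class in control (25 of 93), and those with 2 the largest in cKO (148 of 537). In 15 and 46 cells no Ly49 gene was detected, and 12 and 37 of these had a related receptor. Activating and inhibitory genes were found together in 52 of 93 and 341 of 537 cells, inhibitory genes alone in 15 and 77, and activating genes alone in 11 and 73. At 1000 UMIs per cell over the whole gate, the mean was 0.626 in control and 0.712 in cKO, and 13.0% and 16.6% of cells had at least 2.

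**Figure D4:**
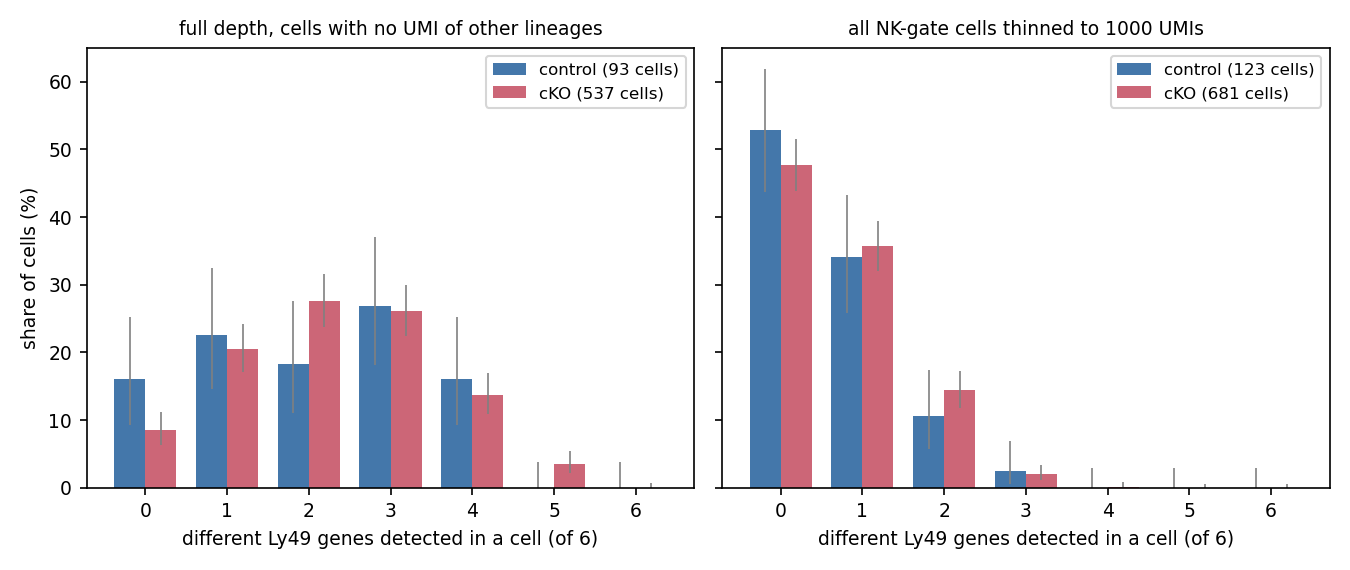
Share of NK-gate cells (y axis, percent) by the number of different Ly49 genes detected (x axis), with exact binomial 95% intervals, at full depth in lineage-free cells (left) and after thinning to 1000 UMIs (right). At full depth 16.1% of control and 8.57% of cKO cells have none, and after thinning 52.8% and 47.7%.

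Pairs of the leading Ly49 genes met in somewhat more cells than the product of their shares at full depth. Klra4 and Klra7 were both found in 37 of 93 lineage-free control cells, where the product of their shares gives 28.5 cells, and in 263 of 537 cKO cells against 235. Over the whole gate they met in 43 cells against 28.8 and in 320 against 279 at full depth, and in 7 against 5.19 and 48 against 37.8 after thinning. Klra4 and Klra8 met in 18 cells against 16.5 and in 163 against 144, and over the whole gate after thinning in 3 against 2.59 and in 20 against 21.1. Klrc1 went the other way with the leading Ly49 genes: it met Klra4 in 3 cells against 8.23 and 36 against 47.4, Klra7 in 4 against 8.39 and 36 against 45.1, and Klra8 in 2 against 4.84 and 23 against 27.8. Over the whole cKO gate Klrc1 met Klra4 in 44 cells against 54.4, Klra7 in 45 against 53.0 and Klra8 in 29 against 34.3 at full depth. In the same gate after thinning the counts were 6 against 6.54, 6 against 6.19 and 3 against 3.45, too few to show a shortfall of that size. In control the Klrc1 pairs rest on 2 to 4 lineage-free cells, and those of the whole gate are not given here. A cell of greater depth shows more of every gene, which raises counts of pairs at full depth.

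Among the subset genes reported, Cxcr6, Il7r and Cd27 were at least 1.5-fold higher in cKO in lineage-free cells, and Itgam and Cd69 at least 1.5-fold lower, beside 20.9% of all genes higher and 14.6% lower. Cxcr6 was found in 3 of 93 control and 13 of 537 cKO cells and Il7r in 4 and 23, so the control values of both rest on few cells and the shares of positive cells were not higher in cKO. Ly49 levels varied with some of these genes. In lineage-free cells those with a UMI of Il7r, the interleukin 7 receptor of innate lymphoid cells, had 338 CPM of Ly49 RNA in cKO, against 1046 in cells without, a ratio of 0.324 (0.268 to 0.387) over 23 and 514 cells, whose median depths were 14307 and 5293 UMIs. The ratio in control was 0.397 (0.237 to 0.624), from 4 Il7r-positive cells, with medians of 10450 and 5329 UMIs, and over the whole gate it was 1.005 (0.741 to 1.34) in control, from 6 positive cells, and 0.372 (0.323 to 0.426) in cKO. With a UMI of Klf2, a factor that controls lymphocyte exit from tissue, Ly49 RNA was lower in control (522 against 1387 CPM, 0.376) and little so in cKO (908 against 1005 CPM, 0.903, 0.84 to 0.971). With a UMI of Cxcr6, a chemokine receptor of tissue-resident cells, the Ly49 ratio was 0.249 (0.0910 to 0.544) in control and 0.681 (0.525 to 0.869) in cKO, from 3 and 13 positive cells, and with Mki67, a gene of dividing cells, 1.10 (0.905 to 1.34) and 0.480 (0.366 to 0.618), from 8 and 9. The Mki67-positive cells had medians of 11700 and 12141 UMIs, against 5205 and 5338 in the others. With a UMI of the perforin gene Prf1 it was higher in both, at 1448 against 806 CPM in control and 1119 against 881 CPM in cKO. Itga1, the CD49a chain of tissue-resident cells, and Itga2, the CD49b chain of conventional NK cells, gave different Ly49 ratios in the whole gate and in lineage-free cells. For Itga1 the lineage-free ratios were 1.19 (1.02 to 1.39) in control and 1.002 (0.936 to 1.07) in cKO, and over the whole gate 2.08 (1.80 to 2.40) and 1.13 (1.06 to 1.20). For Itga2 the lineage-free ratios were 1.06 (0.791 to 1.39) and 1.06 (0.957 to 1.17), and over the whole gate 0.201 (0.155 to 0.256) and 0.855 (0.784 to 0.932). The whole-gate ratios were 0.145 and 0.648 for Klf2, 0.513 and 0.581 for Cxcr6, 0.983 and 0.400 for Mki67 and 4.02 and 1.61 for Prf1.

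Klrb1c was higher in lineage-free cells with a UMI of Gzmb, a granzyme gene, in both libraries, by ratios of 2.88 (1.55 to 5.53) in control and 5.34 (2.54 to 11.5) in cKO. With Ncr1 the ratios were 3.11 (1.70 to 5.73) and 3.91 (1.60 to 8.71). In cKO Klrb1c had 16.4 CPM in Itga1-positive and 1.81 CPM in Itga1-negative cells, a ratio of 9.04 (2.81 to 46.3), and in control 109 and 64.7 CPM, a ratio of 1.69 (0.926 to 3.10). Cells with Cd27, a marker of less mature NK cells, had less Klrb1c in both libraries, with ratios of 0.169 (0.0587 to 0.398) in control and 0.208 (0.0764 to 0.493) in cKO. Over the whole gate the Klrb1c ratios for these 4 genes kept these directions, at 6.46 and 5.15 for Gzmb, 5.67 and 3.46 for Ncr1, 2.91 and 8.67 for Itga1, and 0.258 and 0.252 for Cd27. Taken by Klrb1c itself, 21 lineage-free control cells and 23 cKO cells had a UMI, and 10 and 21 of them had Itga1. The granzyme gene Gzma was in 13 of these 21 control cells at 1819 CPM and in 3 of the 23 cKO cells at 74.3 CPM. Gzma in the cells without Klrb1c is not given here, so this difference is not read as particular to Klrb1c-positive cells. Klrd1 was higher in the Klrb1c-positive cells of both libraries, by ratios of 2.48 and 2.62. The 21 and 23 cells had medians of 8453 and 7836 UMIs, above the 4971 and 5327 of the cells without Klrb1c.

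**Figure D5:**
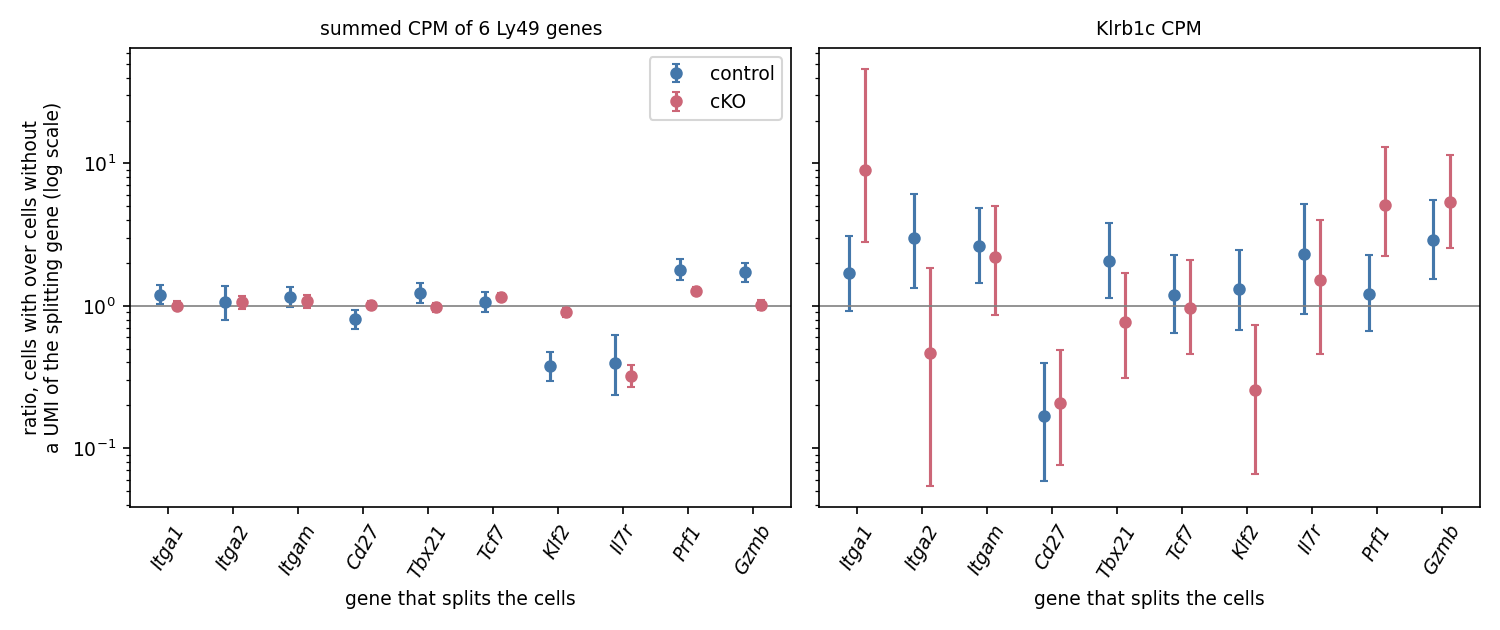
Ratio of CPM in lineage-free NK-gate cells with a UMI of each gene on the x axis over those without (y axis, log scale, 1 means equal), for the 6 Ly49 genes summed (left) and Klrb1c (right), with exact 95% intervals. Cxcr6 and Mki67 are not plotted. Ly49 points with intervals below 1 include Klf2 in both libraries (0.376 in control) and Il7r (0.397 and 0.324). Cd27 in control is another, at 0.802 (0.685 to 0.936), against 1.21 over the whole gate. Those above 1 include Prf1 (1.80 and 1.27), Gzmb in control (1.72) and Itga1 in control. Klrb1c lies below 1 in Cd27-positive cells and above 1 in Gzmb-positive cells of both libraries.

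Across the 6 gates of both libraries (12 points), the genes whose log2(CPM + 1) followed summed Ly49 RNA most closely, of 9070 candidates, were Cd7 (Pearson r = 0.976), Klra5 (0.974), Irf8 (0.970), Klri2 (0.964), Klrg1 (0.962), Xcl1 (0.956), Gpr18 (0.954) and Cd160 (0.9502). These points share the 2 libraries and the gates, so r is a description only. Irf8, a transcription factor of NK and dendritic cells, had 959 CPM in the control NK gate, 2442 CPM in that of cKO, against 105 and 158 CPM in the other T gate. The 5 dendritic markers summed to 156 CPM in the control NK gate against 560 CPM in that of cKO, and their part in the Irf8 difference was not tested. Xcl1, a chemokine, had 104 and 238 CPM in the NK gates and 35.4 and 35.0 CPM in the other T gates.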

How the data were processed

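The authors deposited raw UMI counts per gene and barcode, unfiltered, from 2 libraries (45035801 UMIs in control, 57145553 in cKO). Their software version is Cell Ranger 4, per the file headers, while the submitters' processing notes name Cell Ranger 6.1.1 and mm10. Aligner settings and annotation are not given in the sources used here. Cells had at least 500 genes and at most 20% mitochondrial UMIs. No doublets were removed in the values reported. A Scrublet-like score above 0.25 (36 and 59 cells, 2 and 19 in the NK gates) was removed as an alternative, since the automatic thresholds marked 2 and 24 cells. Gates were read from raw counts. CPM is summed counts per 1e+06 UMIs of the gate, with exact Poisson intervals. Ratios have exact conditional binomial intervals and shares Clopper-Pearson intervals, all for counting error only. A count of 0 was taken to allow 3 counts. Counts of genes past a fold used genes with at least 20 UMIs in both groups together and a pseudocount of 0.5. The members, gates and gene lists were chosen with earlier results of these data known. Named genes were all 10 members, lists of other receptors, adaptors, signalling genes, ligands and subset genes, named by role, and the 8 genes most alike in pattern. The divisions of the gate by Prf1, Gzmb, Mki67 and Klrb1c were added after the data were seen. Coding sequences came from GENCODE M21 (GRCm38). Ratio and thinning steps were tested on simulated data. Python 3.11.15, numpy 2.4.6, scipy 1.17.1 and pandas 2.3.3 were used. Values of 1 subset gene are not reported here.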

Additional observations from a re-analysis of the deposited data

Results flagged for a closer look

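Ly49 UMIs were also present in barcodes that no comparison used, above the 3 counts that a count of 0 allows. In control, 933 barcodes of at least 300 but under 500 genes held 4 Ly49 UMIs (5.25 CPM, 1.43 to 13.5), below the 23.7 CPM of cell-free RNA. In cKO, 1040 such barcodes held 10 Ly49 UMIs (15.6 CPM, 7.49 to 28.7), against 127 CPM of cell-free RNA. The 46 cKO barcodes with more than 20% mitochondrial UMIs held 14 Ly49 UMIs (151 CPM, 82.6 to 254), and the 283 such control barcodes held 0.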

How the results depend on the processing

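No paired analysis was possible because each group was 1 library. The share of NK-gate cells with a Ly49 UMI was 72.4% in control and 88.9% in cKO. It moved to 47.2% and 52.3% at 1000 UMIs per cell, 59.0% and 70.04% at 2000 UMIs, 27.3% and 54.9% with no T cell receptor or CD3 UMI, 83.9% and 91.4% with no UMI of other lineages, and 84.0% and 93.9% with an Fcer1g or Tyrobp UMI. It was 81.8% in control for the gate by Ncr1 alone. The log2 ratio of summed Ly49 CPM, 0.44 for the whole gate, turned to -0.59 by Ncr1 alone (22 and 44 cells), to -0.25 with no UMI of other lineages and to -0.12 with an Fcer1g or Tyrobp UMI. It was 0.14 and 0.12 at 1000 and 2000 UMIs, 0.18 as the mean of the cells' own CPM, 2.51 with no T cell receptor or CD3 UMI (22 and 71 cells) and 0.76 with no Cd3d, Cd3g or Trdc UMI. The log2 ratio of the related receptors, 0.43, was -0.41, -0.19, -0.11, -0.0353, 0.0345, 0.0491, 2.11 and 0.66 under the same alternatives (Ncr1 alone, no other lineages, Fcer1g or Tyrobp, 1000 UMIs, 2000 UMIs, mean of cells, no T cell receptor or CD3, no Cd3d, Cd3g or Trdc).

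Single genes that turned below 0 were, by Ncr1 alone, Klra1 (-0.0615), Klra3 (-1.58), Klra4 (-0.80), Klra8 (-0.74), Klre1 (-0.38) and Klrk1 (-0.22). With no UMI of other lineages they were Klra1 (-0.15), Klra4 (-0.26), Klra7 (-0.15), Klra8 (-0.20), Klre1 (-0.11) and Klrk1 (-0.0842). With an Fcer1g or Tyrobp UMI they were Klra4 (-0.19), Klra7 (-0.0404), Klre1 (-0.00922) and Klrk1 (-0.00555), and at 1000 UMIs Klrk1 (-0.21). Klra3, 0.10 for the whole gate, was also below 0 at 1000 UMIs (-0.70), 2000 UMIs (-0.60) and with an Fcer1g or Tyrobp UMI (-0.45). Klrc1, -0.04097 for the whole gate, ranged from -0.76 with an Fcer1g or Tyrobp UMI to 0.35 by Eomes alone. Klrb1c kept its direction in the 11 alternatives with a value (-3.27 to -2.03), and Klra9 ranged from -1.21 to 2.34, the highest with no T cell receptor or CD3 UMI, where Klrb1c gave no ratio because control had no UMI of it. Klra9 was also above 0 (0.28) with no Cd3d, Cd3g or Trdc UMI. Gene minimums of 300 and 1000, the 10% mitochondrial limit, removal of doublets and the gate by Eomes alone moved neither share nor either sum beyond its interval. The Fcer1g or Tyrobp alternative and the one with no Cd3d, Cd3g or Trdc UMI were chosen after seeing the data. The cause of these moves was not tested. Depth limits the genes of few counts: in the control gate Klra1, Klra3, Klra9, Klrb1c and Klrc1 had 24 to 57 UMIs.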
